A study of Oncorhynchus kisutch with 82 samples.

Results

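Gill arrays of coho salmon (Oncorhynchus kisutch) caught at sea in the summer of 2009 were compared between the northern and the middle Strait of Georgia. The members were all fish whose labels gave the season Ocean_Summer, the year 2009 and the capture area north_SoG (6 fish) or mid_SoG (7 fish), which made 13 of the 82 fish of the series. The series follows gill RNA of juvenile coho from river to sea, with 1 fish and 1 pooled gill reference on each array. The fish RNA carried Alexa 555 and the pool Alexa 647 on every array. All 13 fish were salt-water postsmolts, and the labels give no ages.

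The gill of a salmon takes up oxygen, excretes ammonia and, at sea, secretes salt through ionocytes rich in sodium-potassium ATPase. It is also in direct contact with the water, so immune cells are part of the tissue. A whole-gill sample pools epithelium, ionocytes, blood, cartilage and immune cells, and a lower level of an RNA cannot be told apart from a lower share of the cells that hold it. No table used here pairs the probes with genes, so the tissue could not be checked against its marker genes, and probes are named by their column and row on the array (C204R060). "Higher" and "lower" refer to the deposited log ratio, taken as log2. The labels do not say which channel is the numerator, so the direction in RNA is not settled.

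The northern fish were 2656 and 2675, of hatchery origin, and 2658, 2713, 2727 and 2728, of wild origin. Of these, 4 were female and 2 male. Fish 2713 had the stock region S_Main, and the other 12 fish had Fraser. The middle Strait fish were 2786, 2794, 2856 and 2905, of hatchery origin, and 2800, 2857 and 2921, of wild origin, with 4 females and 3 males. Fork length was 16.85 ± 1.95 cm (SD, n = 6) in the north and 18.70 ± 1.91 cm (SD, n = 7) in the middle Strait, a difference within what regrouping the fish gave (two-sided exact permutation test, p = 0.119). The fish came from 4 stations in the north and 5 in the middle Strait, and fish of 1 station shared a catch (2656 with 2658, 2727 with 2728, 2794 with 2800, 2856 with 2857).

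The spread of log ratios on the array separated the middle Strait fish into 2 kinds. The SD over all probes was 1.45 in fish 2794, 1.88 in fish 2800, 1.87 in fish 2856, 1.48 in fish 2857 and 1.83 in fish 2921. These 5 arrays lay above the limit of 1.3 and are called wide-spread below. The next highest, well below the limit, was middle Strait fish 2905 at 0.878, followed by northern fish 2656 at 0.807 and middle Strait fish 2786 at 0.801. The other 5 northern arrays ran from 0.719 in fish 2713 to 0.775 in fish 2727. No northern array came near the limit, whereas the series as a whole had a median SD of 0.861 and 14 arrays above it. Between 14.1% and 26.0% of the values on a wide-spread array lay beyond 2 log2 units from 0, against 1.65% to 4.55% on the other 8.

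A control measure moved with the wide-spread arrays. The control spots named DarkCorner had a log ratio of 0.60 in fish 2794, 0.94 in fish 2857, 1.75 in fish 2921, 2.12 in fish 2800 and 2.76 in fish 2856. In the northern fish they ran from -1.37 to 0.43, and in fish 2786 and 2905 they were -0.67 and -0.73. The wide-spread arrays and the other 8 did not overlap in this measure. Over the series, 13 of the 14 arrays above the limit reached 0.598 and so did 7 of the other 68. That cut is the lowest value of the 5 wide-spread arrays, which are among the 13 and reach it by definition. The control spots named GE_BrightCorner did overlap, with -1.08 to -0.37 on the wide-spread arrays and -0.61 to -0.21 in the north. The part of the DarkCorner level in the area difference was not tested. With the DarkCorner log ratio as a covariate, a setting chosen after the data were seen, 0 of 19987 probes were called (limma). The median difference was then 0.46 log2 units (median SE 0.40), and 3590 probes had an unadjusted p below 0.05. As the measure separates the wide-spread arrays from the other 8, this setting cannot tell the DarkCorner level apart from that grouping.

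**Figure D1:**
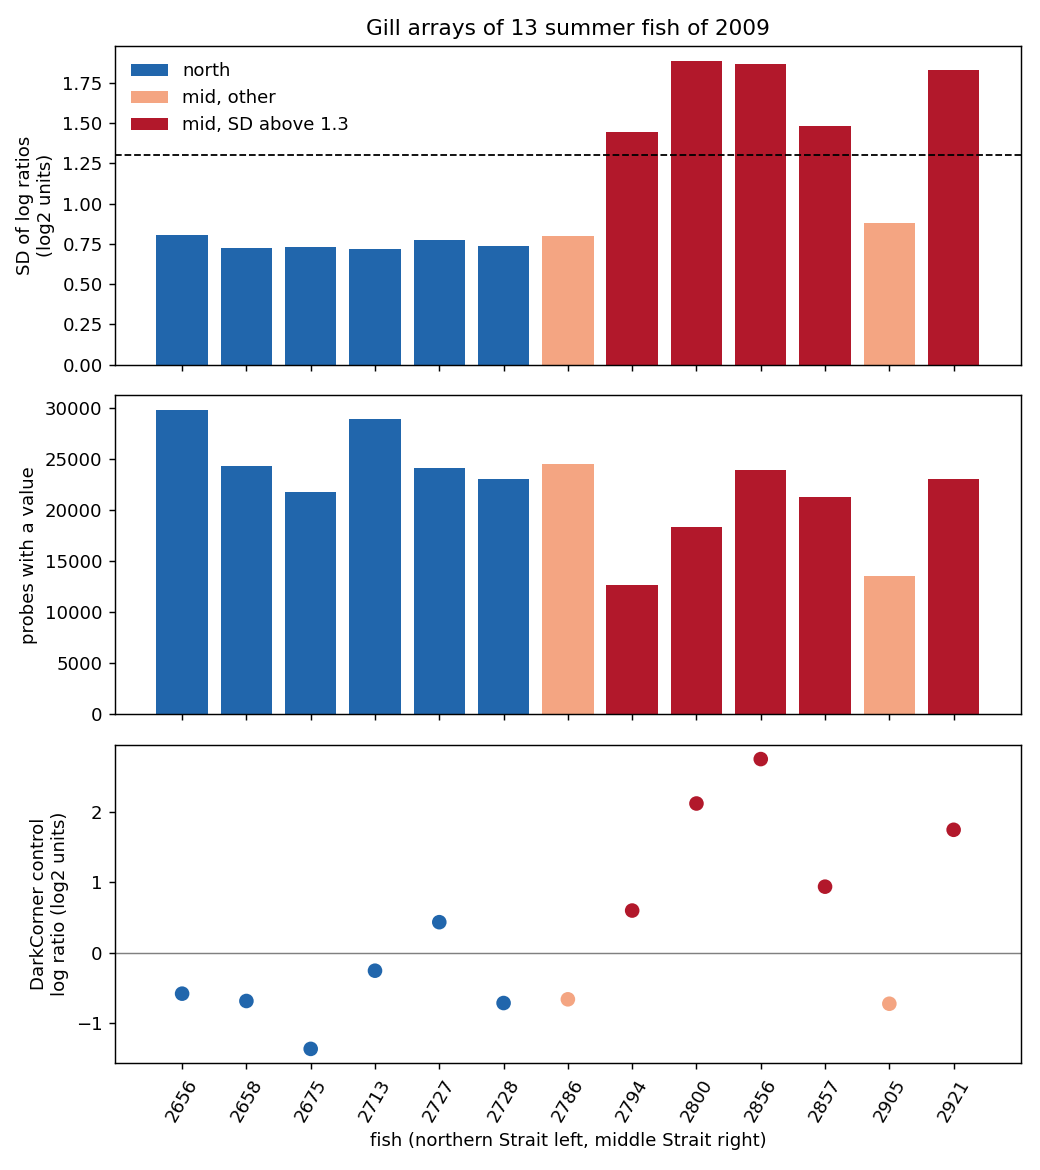
SD of the log ratios, number of probes with a value and log ratio of the DarkCorner control spots (log2 units) for each of the 13 fish. Colours give northern fish, middle Strait fish with an SD above 1.3 and the other middle Strait fish, and the dashed line is the limit. The 5 wide-spread arrays are the highest in the top and bottom panels, while their numbers of values lie among those of the other arrays except for fish 2794, the lowest at 12606.

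The 13 arrays lay on 10 slides. A single slide held both areas, with northern fish 2727 (SD 0.775) and middle Strait fish 2856 (SD 1.87). Another held wide-spread fish 2794 and also fish 2905. The 5 slides with a wide-spread array carried 8 other coho arrays of the series, of which 1, a fall fish, was above the limit at 1.68. Array position 2 held 3 of the wide-spread arrays and no northern one. Slide and area could be fitted together only through that single shared slide.

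An array had a value for 25276 ± 3245 probes (SD, n = 6) in the north and 19579 ± 4891 (SD, n = 7) in the middle Strait. The northern arrays had more values (two-sided exact permutation test, p = 0.039, with 0.000583 the smallest p that 1716 regroupings allow). Fish 2794 and 2905, on 1 slide, had the fewest, 12606 and 13561. Without the wide-spread arrays the middle Strait mean was 19019 ± 7718 (SD, n = 2) and the exact permutation p was 0.214. Of the possible values 48.6% were empty, 11004 probes had a value on all 13 arrays and 9674 on none.

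The question put by the capture areas was whether summer fish of the same year differed in gill RNA between the north and the middle of the Strait. Across all 13 fish, with origin as covariate, 10986 of 19987 probes tested were called at an adjusted p below 0.05 (limma, Benjamini-Hochberg), or 55%; 62.1% had an unadjusted p below 0.05. The log ratio was higher in the north for 5014 (25.1%) and lower for 5972 (29.9%). A difference of at least 1 log2 unit was called for 8507 probes (42.6%), 3997 higher (20%) and 4510 lower (22.6%). The areas nevertheless overlapped for most probes. Of the 11004 probes measured in all 13 fish, 349 (3.17%) had northern and middle Strait fish fully apart.

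Leaving out the 5 wide-spread arrays ended every call. Then 6 northern fish stood against fish 2786 and 2905, both hatchery males. Every middle Strait female had a wide-spread array, as did male fish 2794. Sex thus went largely with that split, and the fit without those arrays had no sex term. In it 0 of 13195 probes were called (limma, lowest adjusted p = 0.793). Large differences went uncalled as well, such as 3.37 log2 units in C246R042 (SE 0.79), so absence of an area difference was not shown. An unadjusted p below 0.05 was found for 730 of them, or 5.53%. The filter on missing values removed 6842 probes from that test, 3298 of them called before. For the 7688 called probes tested both ways, the median size of the difference went from 1.44 to 0.376 log2 units. Its median SE moved little, from 0.387 to 0.412, with fewer residual degrees of freedom behind the second value. These probes were called with the wide-spread arrays in, and that choice favours a fall. Over all 13145 probes tested both ways, called or not, the median size went from 0.956 to 0.328.

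Other settings also lost calls, with different sizes behind them, while some kept most of them. Over all probes tested, the median size of the difference was 0.90 log2 units with 13 fish (median SE 0.34) and 0.33 without the wide-spread arrays (median SE 0.39). With array SD as a covariate 0 probes were called, at a median of 0.38 (SE 0.44, limma). Array SD is the measure that set the wide-spread arrays apart. That setting thus cannot be told apart from the grouping and is no separate check. With slide as a fixed block 0 of 11322 were called, at a median of 1.19 and a median SE of 1.23. There the SE grew and the difference did not shrink, over fewer probes than the other settings. Its area estimate rests on the slide of northern fish 2727, wild, and wide-spread fish 2856, hatchery. It rests also on the slide of northern fish 2675, hatchery, and 2728, wild, which gives the origin term. Almost no residual degrees of freedom were left, so the 0 calls there say little. With array position as a covariate 54 were called, at a median of 0.79 (SE 0.44), and with fork length 5624, at 0.89 (SE 0.42). Settings that evened the spread between arrays kept most calls. Scaling arrays to the median SD gave 8946 (44.8%), at a median of 0.58 (SE 0.25). Quantile normalization gave 8501 (42.5%), at 0.81 (SE 0.35). Averaging the fish of each station, with area as the only term and so not adjusted for origin, gave 555 calls of 21314 probes tested (2.6%). The median there was 0.74 (SE 0.38). Capture station as a random block instead gave 13184 calls, at 0.97 (SE 0.30), with a block correlation of -0.339. With that negative correlation the SE was below the 0.34 found without a block, so this setting was no stricter.

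Among the 6752 called probes with a value on all 13 arrays, the median share of the difference kept without the wide-spread arrays was 23.3%. More than 50% was kept by 1314 probes (19.5%), and 1146 (17.0%) turned sign. The deviations of the middle Strait fish from the northern mean, turned to the called direction and summed over these probes, came to 93.9% from the 5 wide-spread arrays. Fish 2921 gave 21.7%, fish 2800 21.0%, fish 2856 20.9%, fish 2794 15.4% and fish 2857 14.9%. Fish 2905 gave 7.33%, and fish 2786 gave -1.2%, on balance on the far side of the northern mean. These shares describe the arrays that made the calls and are no separate test.

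**Figure D2:**
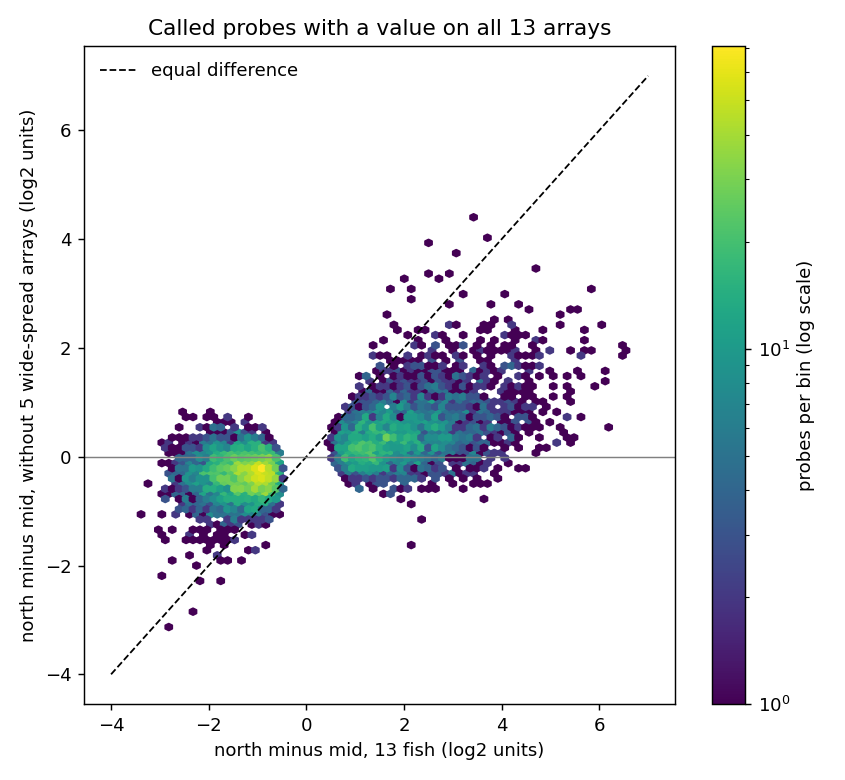
North minus mid for each called probe with a value on all 13 arrays, with 13 fish on the x axis and without the 5 wide-spread arrays on the y axis (log2 units, colour gives probes per bin on a log scale). Most of the 6752 probes lie between the dashed line of equal difference and 0, with a median of 23.3% of the difference kept.

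Each middle Strait fish was then placed against the range of the 6 northern fish. Of the 6752 called probes, 98.9% lay outside the northern range in fish 2921, 97.6% in fish 2800, 96.1% in fish 2794, 94.9% in fish 2856 and 91.2% in fish 2857. In fish 2905 the share of called probes was 66.7% (55.8% over all), and in fish 2786 it was 32.3% (35.4% over all). A northern fish set against the other 5 lay outside for 20.2% (fish 2728) to 53.2% (fish 2727) of called probes. Over all probes this was 21.2% to 48.7%. The range of 5 fish is never wider than that of all 6, which raises the northern shares beside the others. With that limit, the share of fish 2786 fell within the span of the northern shares, and that of fish 2905 lay between them and the wide-spread arrays.

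**Figure D3:**
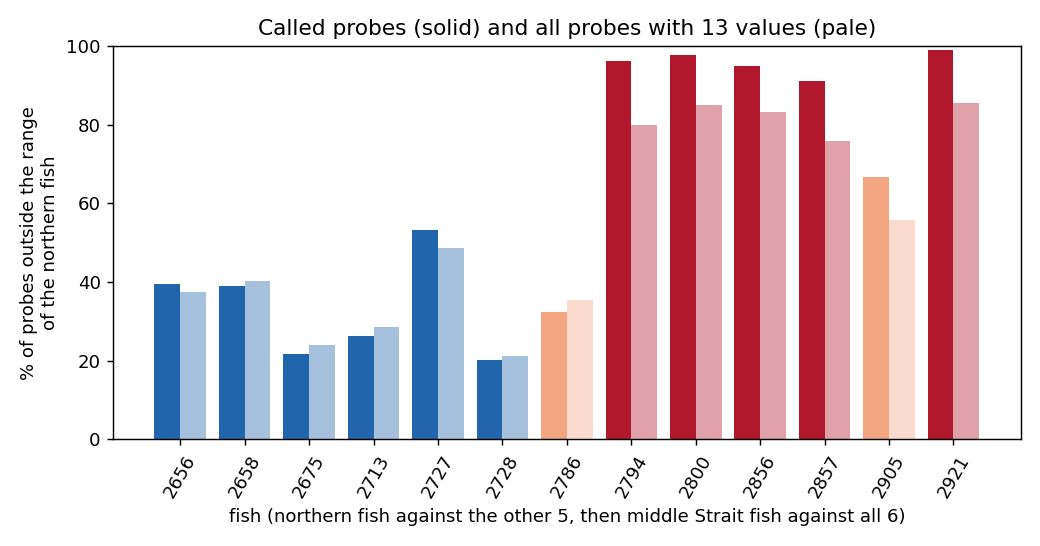
Share of probes (%) for which a fish lies outside the range of the northern fish, for the 6752 called probes (solid) and all 11004 probes with 13 values (pale). Northern fish are set against the other 5, middle Strait fish against all 6. Among called probes the wide-spread arrays lie between 91.2% and 98.9%, fish 2905 at 66.7% and fish 2786 at 32.3%. Over all probes these are 75.8% to 85.5%, 55.8% and 35.4%.

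The profiles of the arrays gave the same order. Over the 11004 probes, northern arrays correlated with each other at r = 0.509 to 0.793 and wide-spread arrays at r = 0.712 to 0.959. Between the 2 kinds r ran from -0.237 to 0.328. Fish 2786 had r = 0.761 with the northern mean and -0.216 with the wide-spread mean. Fish 2905 had r = 0.313 and 0.620, although its SD was below the limit. Fish 2786 and 2905 had r = 0.106 with each other. These are correlations across probes, which share the pool, the array design and the processing, and are descriptions only.

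Shared catch and shared slide could be set side by side. Fish of 1 station had r = 0.776 (2656 and 2658), 0.682 (2727 and 2728), 0.888 (2794 and 2800) and 0.712 (2856 and 2857). The median was 0.725 over all northern pairs and 0.879 over all wide-spread pairs. In each area 1 pair from a catch lay above that median and 1 below. Each of the last 2 of these catches gave wide-spread arrays only. On the slide that held both areas, fish 2727 and 2856 had r = 0.239. Fish 2794 and 2905, also on a common slide, had r = 0.672, and northern fish 2675 and 2728, on another, had r = 0.762. Fish 2857 and 2905, on different slides, had r = 0.776. The first principal component took 78.9% of the variance over these probes and the second 8.55%.

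**Figure D4:**
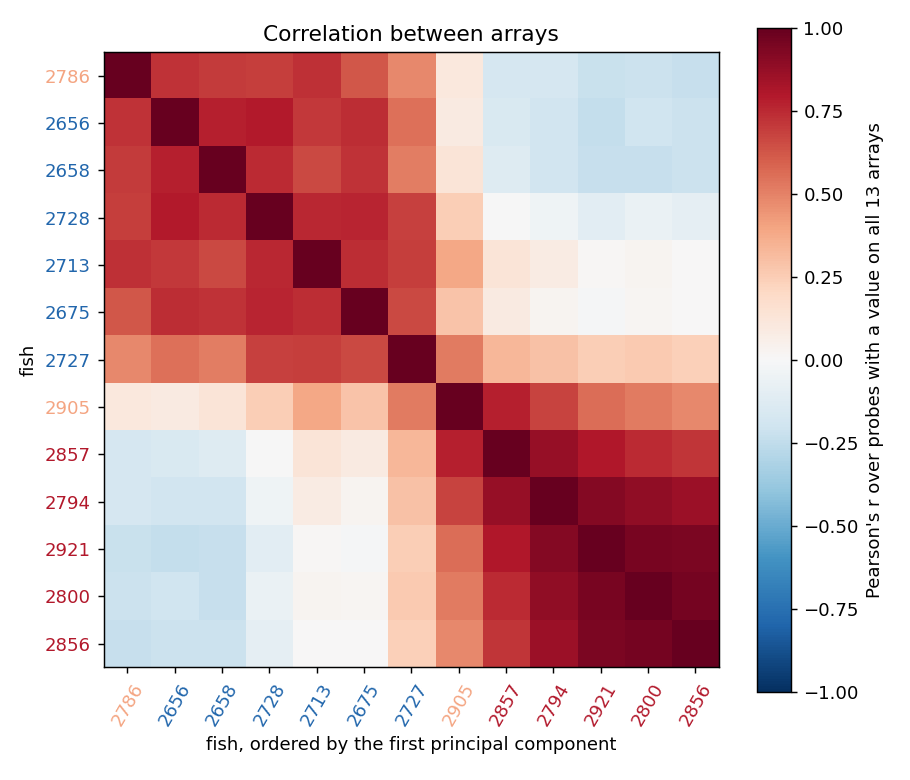
Pearson's r between the 13 arrays over 11004 probes with a value on all of them, ordered by the first principal component. Label colours give northern fish, wide-spread middle Strait fish and the other middle Strait fish. Northern fish and fish 2786 form 1 block (lowest r 0.482, fish 2727 and 2786) and the wide-spread arrays another (lowest r 0.712). Fish 2905 stands between them in the order, with r = 0.482 to 0.776 with wide-spread arrays and 0.087 to 0.516 with northern fish.

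The largest called differences showed this pattern probe by probe. C204R060 had northern log ratios of 0.66, 0.27, 0.62, 0.70, 0.42 and 0.23 in fish 2656, 2658, 2675, 2713, 2727 and 2728. On the wide-spread arrays it had -5.80 in fish 2794, -7.14 in fish 2800, -7.61 in fish 2856, -7.91 in fish 2857 and -7.73 in fish 2921. Fish 2905 had -3.60 and fish 2786 had 0.85, above every northern fish, so the areas overlapped. The difference, north minus mid, was 6.55 (SE 1.09, limma adjusted p = 0.00286), and without the wide-spread arrays it was 2.02 (SE 1.07, unadjusted p = 0.091).

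C215R152 ran from 0.19 to 2.81 around a median of 1.54 in the north, and from -7.76 to 0.32 around a median of -6.01 in the middle Strait. Its highest middle Strait value was that of fish 2905, not 2786. The difference was 6.43 (SE 1.21, limma adjusted p = 0.00323), with 28.7% kept without the wide-spread arrays. C046R103 ran from 0.46 to 1.00 in the north, with a median of 0.85, and from -7.26 to 1.00 in the middle Strait, with a median of -6.83. Fish 2786 was level with the highest northern fish there, and the difference was 6.42 (SE 1.07, limma adjusted p = 0.00286).

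The other 7 of the 10 probes with the largest higher log ratio in the north were C141R114, C026R038, C069R134, C224R165, C241R001, C160R170 and C111R015. Their differences lay between 5.81 and 6.2, with limma adjusted p between 0.00286 and 0.00412. In each of the 10 the areas overlapped through fish 2786 or 2905. Fish 2905 was as low as -5.07 in C160R170, next to the wide-spread arrays at -6.29 to -5.20, and at -0.09 in C026R038, among the northern values. C141R114 kept the least of the 10, 9.37%, and C160R170 the most, 53.2%.

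In the other direction differences were smaller. C113R033 had -2.30, -0.98, -1.22, -0.78, -0.86 and -1.27 in the northern fish, in the order above. The wide-spread arrays had 1.85, 2.99, 4.14, 1.71 and 3.62 in fish 2794, 2800, 2856, 2857 and 2921. Fish 2905 had 0.19, above all northern fish, and fish 2786 had -1.54, among them. The difference was -3.39 (SE 0.72, limma adjusted p = 0.00447), and -1.09 (SE 0.55, unadjusted p = 0.08) without the wide-spread arrays.

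C116R159 and C108R095 were the members of this group of 10 whose areas did not overlap. C116R159 ran from -3.21 to -0.92 in the north (median -2.31) and from -0.90 to 3.27 in the middle Strait (median 0.68). Fish 2656 and the wide-spread fish 2800 stood almost level at the border. The difference was -3.02 (SE 0.62, limma adjusted p = 0.00392), with 72.2% kept. C108R095 ran from -1.33 to 0.07 in the north (median -0.68) and from 0.17 to 3.88 in the middle Strait (median 1.83). Its difference was -2.94 (SE 0.57, limma adjusted p = 0.00337), with 52.3% kept.

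The remaining 7 were C211R056, C036R168, C152R009, C063R146, C143R132, C211R095 and C037R151, with differences between -3.24 and -2.91 and limma adjusted p between 0.00323 and 0.0104. C143R132 ran from 2.80 to 6.00 on the wide-spread arrays and from 0.48 to 1.36 in the north, with fish 2786 and 2905 at 0.42 and 0.92. Its sign turned without the wide-spread arrays, to 0.17. C211R095 kept 4.25% of its difference, and C152R009 kept 47%.

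**Figure D5:**
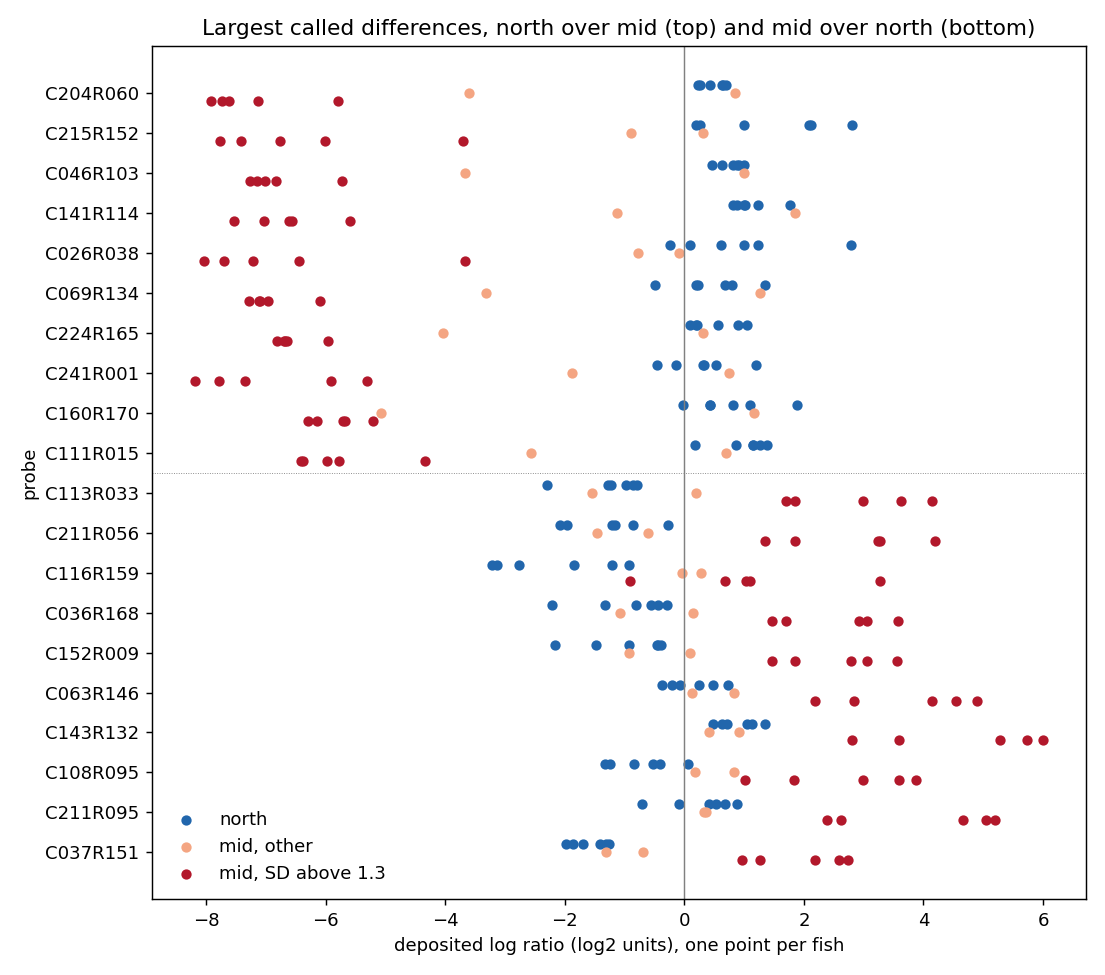
Deposited log ratios (log2 units) of the 10 called probes with the largest higher and the 10 with the largest lower log ratio in the north, 1 point per fish. In the upper probes the wide-spread arrays lie between -8.19 and -3.67 while fish 2786 lies at -0.89 to 1.85, below every northern fish in C215R152 and C026R038. In the lower probes the groups are nearer and C143R132 reaches 6.00.

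A further 10 probes were taken by their unadjusted p without the wide-spread arrays, where none was called (adjusted p = 0.793, limma). That choice favours probes in which fish 2786 and 2905 lie apart from the north, so the shares kept and the places of these fish are descriptions and set no contrast with the probes above. C097R065 had -2.01, -0.52, -1.62, -0.44, 0.00 and -1.02 in the northern fish. Fish 2786 and 2905 had -0.03 and 0.88, and the wide-spread arrays 0.82 to 2.10. The northern fish 2727 and fish 2786 were nearly level, so the areas overlapped. The difference was -2.14 over 13 fish (SE 0.29, limma adjusted p = 0.00286) and -2.24 (SE 0.42) without the wide-spread arrays.

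C199R166 did not overlap between areas. The northern fish ran from 0.41 to 1.45 (median 0.99) and the middle Strait fish from -2.16 to 0.04 (median -1.22). Fish 2786 and 2905 had 0.04 and -0.52, so both lay below every northern fish. The difference was 2.38 (SE 0.30, limma adjusted p = 0.00286), with 65% kept. C149R131, C224R131 and C246R042 were also higher in the north by 2.05 to 2.70, with 76.5% to 137.6% kept.

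C026R092, C043R025 and C180R071 were lower in the north with no overlap. C026R092 ran from -0.91 to -0.26 in the north (median -0.49) and from 0.70 to 2.43 in the middle Strait (median 0.78). Here fish 2786 at 0.70 and fish 2905 at 0.97 lay with the wide-spread arrays. The difference was -1.70 (SE 0.28, limma adjusted p = 0.00286), with 87.9% kept. C043R025 and C180R071 differed by -2.0 and -2.38, with 68.6% and 60.7% kept. C035R111, by -1.61, overlapped. C066R157 was not called over 13 fish, with 0.79 (SE 0.37, limma adjusted p = 0.0803).

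At the extremes of what was kept, C169R099, C170R067 and C193R024 had called differences of -1.23, 1.76 and 1.46 over 13 fish and about 0 without the wide-spread arrays. C193R024 ran from -2.18 to -1.37 on the wide-spread arrays and from -0.13 to 0.14 in the north, with fish 2786 at 0.24 and fish 2905 at -0.41. C068R013, C120R061 and C095R051 kept 195%, 178% and 175%. In C068R013 fish 2786 alone stood high, at 1.72, while the other 6 middle Strait fish lay between -0.36 and 0.38.

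Origin did not resolve the comparison further. The area by origin interaction was called for 0 of 18805 probes, and 519 (2.76%) had an unadjusted p below 0.05 (limma). The smallest p in each direction belonged to C208R038, with a hatchery minus wild difference of the area differences of 2.64 (SE 0.63, limma adjusted p = 0.878), and C008R060, with -2.15 (SE 0.43, same adjusted p). C085R057, C085R062, C084R080 and C070R112 came next, between -2.05 and 2.20. Fitted alone, the wild fish gave 12266 calls of 20486 probes tested (59.9%), and all 3 wild middle Strait arrays were wide-spread. The hatchery fish gave 0 calls of 20098 probes tested and 716 unadjusted p below 0.05, at a median difference of 0.61 (median SE 0.59). Of their 4 middle Strait arrays, 2 were wide-spread.

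The same areas had been sampled in the summer of 2008, with northern fish 502 and 503 and middle Strait fish 532 and 552. Fish 502 and 503 shared a station, and both were longer than fish 532 and 552. In 2009 the middle Strait fish had the longer mean. Area, catch and body length cannot be told apart in 2008, and their parts were not tested. Origin was not balanced between the areas of 2008 either, and the fit of 17 fish below held it as a term. The array SDs of the 4 fish were 0.912, 0.783, 0.701 and 0.779, so none was above the limit. In a fit of all 17 fish, 1 of 17186 probes (0.00582%) was called between the areas of 2008, and 967 (5.63%) had an unadjusted p below 0.05 (limma). That fit took its spread from both years, with the wide-spread arrays in it. Its median SE was 0.57, against 0.42 without the wide-spread arrays and 0.39 for the 4 fish of 2008 alone. With so few fish, the low count does not show that the areas of 2008 were alike. The called probe, C246R042, had -3.74 and -3.65 in the northern and 2.19 and 2.18 in the middle Strait fish of 2008, a difference of -5.77 (SE 0.80, limma adjusted p = 0.0371). In 2009 the same probe was higher in the north, by 2.45. The 2008 call was lost after quantile normalization and without the wide-spread arrays. The 4 fish of 2008 fitted alone, with area as the only term and so not adjusted for origin, gave 38 calls of 18099 probes tested (0.21%). All were lower in the north, and 1925 probes had an unadjusted p below 0.05. C135R042, with 2.86 (SE 0.57, limma adjusted p = 0.389), had the smallest p among probes higher in the north in 2008, followed by C212R077 and C226R129.

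The area differences of the 2 years used separate fish but a common pool and array design. Those of 2009 were adjusted for origin, while those of 2008 were plain differences of means. Across 17186 probes they correlated at r = 0.491 (Spearman's rho 0.549), and 71.3% had the same sign. Without the wide-spread arrays of 2009 this was r = 0.304 (rho 0.385) over 12693 probes, with 64.7% of the same sign. Fish 552 of 2008 correlated with the wide-spread mean of 2009 at r = 0.481 and with the northern mean at 0.433. Leaving out fish 552 gave r = 0.253 and 61% of the same sign. Leaving out fish 502 gave r = 0.322, and leaving out 503 or 532 gave 0.517 and 0.577. Probes are not independent replicates, and these figures carry no test.

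The area difference itself differed between the years for 5 of 17186 probes (0.0291%), all with a higher value in 2009 (limma). The median SE over all probes tested was 0.64. Besides C246R042 these were C028R091, C177R101, C095R051 and C043R057. In C177R101 the northern fish of 2008 had -5.36 and -4.55 and the middle Strait fish 1.70 and 1.45. In 2009 the northern fish ran from -2.08 to 0.96 and the middle Strait fish from -4.37 in fish 2786 to -0.43 in fish 2857. The lowest middle Strait fish in all 5 probes was 2786, whose array was not wide-spread. Fish 2713 was the lowest northern fish of 2009 in all 5. The northern fish of 2008 lay below, and the middle Strait fish of 2008 above, every 2009 fish of their area. The 5 probes thus shared a profile over the fish and are not 5 separate results. Without the wide-spread arrays 1 probe was called, and after quantile normalization 10. The smallest p in the other direction belonged to C023R154, C149R036 and C133R162, none of them called, at -2.74 to -3.47. In these probes the middle Strait values of 2009 came only from wide-spread fish 2800, 2856, 2857 and 2921.

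Whether a probe had a value at all was compared too. By Fisher's exact test 0 of 22558 probes were called, and 1112 had an unadjusted p below 0.05. A value on all 6 northern and no middle Strait array was found for 9 probes, among them C011R159, C018R039 and C069R007 (p = 0.000583 each, adjusted p = 0.408, exact), and no probe had the reverse. C209R114 came nearest to it, with a value on 0 northern and 6 middle Strait arrays (adjusted p = 0.408, exact). C042R111 and C043R116 had values on 0 northern and 4 middle Strait arrays, all 4 of them wide-spread.

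The 2 summer fish of 2009 with the capture area south_SoG, 2014 and 2944, had SDs of 0.715 and 0.827. They correlated with the northern mean at r = 0.694 and 0.657 and with the wide-spread mean at r = 0.083 and 0.338. For C204R060 they had -0.86 and -0.59, far from the wide-spread arrays at -7.91 to -5.80. Of the 15 summer fish of 2009, the wide-spread arrays were thus found in the middle Strait only.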

How the data were processed

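Members and probe rules were chosen with earlier results of these data known. The authors deposited 1 log ratio per spot and array, here taken as log2; base, direction, normalization and the rule for empty values are not stated in the labels or headers. The authors' processed table, whose unit is not stated, and their series table, taken as log2, gave the same counts. No array column was left unused. From 43296 spots, 60 control spots were left out and 43236 probes kept. Area and origin were the terms of a linear model per probe (limma 3.58.1, under R 4.3.3, with empirical Bayes variances). Each area had to have values in 50% of its fish or more, with a minimum of 2. Tests were two-sided, adjusted by Benjamini-Hochberg over all probes tested and called below 0.05. The 2008 and year comparisons shared 1 fit of 17 fish. Nothing was imputed. Array number limits precision, and each array is a separate fish.

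Named probes had a value on all 13 arrays and were the 10 largest called per direction, the 5 per direction with the smallest p without the wide-spread arrays, and the 3 called with the least and the most of their difference kept. For the interactions, 2008 and presence, the 3 smallest p per direction were candidates. The fits were tested on simulated data. Gene and marker lists could not be applied, because no table pairs probes with genes. Plots used matplotlib 3.10.9.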

Additional observations from a re-analysis of the deposited data

Results flagged for a closer look

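Among 80 sets of values tested for a sample far from the others (Dixon's ratio of gap to range), 5 stood out, 1 in the north and 4 in the middle Strait. Chance alone marks about 1 in 20 sets that were not selected. Most sets here were named probes chosen from these same values, so that rate does not hold for them and the 5 are descriptions only. In the north, fish 2656 was far below the others in C113R033, at -2.30 with the next at -1.27. In the middle Strait, fish 2786 stood above the rest in C224R165 (0.31, next -4.03), in C160R170 (1.16, next -5.07) and in C068R013 (1.72, next 0.38). Fish 2921 stood above the rest in C026R092 (2.43, next 1.10).

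The area difference, 2009 minus 2008, passed the test in 5 probes, which shared a profile over the fish and are not 5 separate results. It was 8.21 (SE 0.89) for C246R042, 9.15 (SE 1.02) for C028R091, 8.57 (SE 1.20) for C177R101, 8.28 (SE 1.21) for C095R051 and 8.62 (SE 1.40) for C043R057, with limma adjusted p of 0.00155, 0.00325, 0.0135, 0.0169 and 0.04997. The year 2008 had 2 fish per area, and its northern fish shared a station and were longer than its middle Strait fish.

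Outside the probes compared, 2 control spots had a value on all 13 arrays, and those named DarkCorner were higher on each wide-spread array (0.60 to 2.76) than on the other 8 (-1.37 to 0.43).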

How the results depend on the processing

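The 10986 calls became 0 without the wide-spread arrays, with array SD as covariate (1708 unadjusted p below 0.05), with hatchery fish only, and with slide as a fixed block (1504 of 11322). Over all probes tested the median difference was 0.90 (median SE 0.34), and it was 0.33 (0.39), 0.38 (0.44), 0.61 (0.59) and 1.19 (1.23) in these settings in turn. Array SD defined the wide-spread arrays, so its use as covariate is no check separate from leaving them out. The calls became 5624 with fork length as covariate (0.89, SE 0.42), 54 with array position (0.79, SE 0.44; 2 higher and 52 lower in the north) and 6786 among the 11004 probes with 13 values, where fewer probes were tested. Settings chosen after seeing the data gave 555 calls on station means without an origin term (0.74, SE 0.38) and 0 with the DarkCorner covariate (0.46, SE 0.40). Without the wide-spread arrays, 0 were called also among probes with 13 values, after quantile normalization and with area alone (581, 679 and 917 unadjusted p below 0.05). Leaving out 1 fish at a time gave 7781 (without fish 2921) to 13707 (without fish 2786). Scaling arrays to the median SD gave 8946, and quantile normalization 8501. Counts rose to 14182 with array weights, 13184 with capture station as a random block and 11051 with slide as a random block. The array weights were lowest for fish 2786 (0.12) and 2905 (0.30), with 0.43 to 1.32 on the wide-spread arrays. That setting thus leans on the wide-spread arrays and is no check on them. Without the wide-spread arrays the sign turned for C143R132 (0.17) and C193R024 (-0.000158). With array SD as covariate it turned for C211R056 (0.19), C143R132 (0.73), C211R095 (0.47), C169R099 (0.26), C170R067 (-0.55) and C193R024 (-0.0264). The count for 2008 was 0 without the wide-spread arrays and after quantile normalization, and 38 for the 4 fish alone; the year interaction gave 1 and 10. The difference in values per array was 6258 without the wide-spread arrays and no longer passed. Beyond these sizes and SEs, the cause of the changes was not tested. The origin interaction without the wide-spread arrays was not run, as no wild middle Strait fish was left. No paired analysis was possible because replicate numbers only name the fish. With 2 middle Strait arrays left, even a difference of 3.37 log2 units (C246R042, SE 0.79) was not called. The 0 calls there do not show that the areas were alike.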
